A study of Homo sapiens with 12 samples.

Results

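The gene set described here holds 35 genes of glycolysis and of the response to low oxygen, followed in HPB-ALL cells with inducible TAL1, LMO1 or both. The genes were listed by symbol. Glucose uptake, the glycolytic steps, lactate and the gate to the mitochondrion account for 25 of them, and the remaining 10 are oxygen sensors, the factor HIF1A and genes known as its targets. All 35 were found in the count table of 63677 genes, and all 35 had enough counts to be among the 16287 genes tested. TPI1, PGK1 and ENO2 each share their symbol with an extra Ensembl identifier that held 0 counts in all libraries, so that the 35 symbols had 38 identifiers.

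HPB-ALL is an established human line from T-cell acute lymphoblastic leukaemia. TAL1 binds DNA through a basic helix-loop-helix domain, LMO1 links such factors through its LIM domains, and both are known oncogenes of this leukaemia. Cells carrying lentiviral constructs had been put through drug selection, which gave 3 lines: the TAL1 line, the LMO1 line and the TAL1/LMO1 line, whose labels name both genes. Each line was treated with doxycycline (DOX), which switches the transgene on, or with the vehicle DMSO, and each of the 6 groups had 2 libraries. The growth medium held serum free of tetracycline in every group. Neither the dose and duration of DOX nor whether a line came from 1 clone is stated in the labels. A line lacking any transgene was not analysed here, so an effect of DOX itself cannot be told apart from that of the induced gene.

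Glycolysis turns glucose into pyruvate in the cytoplasm. Lactate dehydrogenase converts pyruvate to lactate, which leaves the cell through monocarboxylate transporters, while pyruvate dehydrogenase sends it to the mitochondrion unless a pyruvate dehydrogenase kinase blocks that step. When oxygen is low, the prolyl hydroxylases of the EGLN family no longer mark HIF-1α for destruction, and this factor raises the transcription of many glycolytic genes, of angiogenic factors and of genes for mitophagy. HIF-1α is known to be controlled mainly at the level of its protein, which RNA sequencing does not measure.

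Libraries held 14865073 to 15917713 counts. TAL1 stood at 3.88 to 4.06 CPM (the usual depth-normalised count, here on TMM-scaled library totals) in the DMSO and 35.5 to 42.9 CPM in the DOX libraries of the TAL1 line, and LMO1 at 1.76 to 3.93 and 212 to 239 CPM in the LMO1 line. In the TAL1/LMO1 line TAL1 went from 3.08 to 7.34 CPM in the DMSO libraries to 868 to 932 CPM in the DOX libraries, and LMO1 from 0.449 to 6.89 CPM to 1501 to 1576 CPM. The induced level of either gene was thus far higher in the TAL1/LMO1 line than in the single lines, and an effect of having both genes cannot be told apart from one of their level. The counts do not separate a construct from the endogenous gene. Markers of the T lineage summed to 2323 to 3798 CPM in every library. Of these, CD2 was low at 0.327 to 7.74 CPM, and CD7 ran from 2.62 to 316 CPM between libraries. B-lineage markers summed to 3.75 to 10.3 CPM, myeloid markers to 0.634 to 3.48 CPM and erythroid markers to at most 0.0660 CPM. MS4A1, HBA1, HBB and HBG1 were at 0 in all libraries.

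The large response was in the TAL1/LMO1 line, where most glycolytic enzymes were lower with DOX, and HIF1A and some of the genes known as its targets were higher. Changes were called with the quasi-likelihood test of edgeR, where the Benjamini-Hochberg adjusted p, taken over every tested gene, was under 0.05. In this line 20 of the 35 genes fell, 9 rose and 6 did not pass the test. Of all genes tested, 60.2% were called in this line, 28.5% higher and 31.7% lower. A change of at least 1 on the log2 scale was called for 11 of the 35 genes, against 14.8% of all genes. The median log2 fold change of the 35 genes was -0.28, and that of all genes -0.01. Among the 25 genes of glycolysis and pyruvate 17 fell, 5 rose and 3 were not called, with a median of -0.35. Among the 10 genes of the hypoxia response 3 fell, 4 rose and 3 were not called, with a median of 0.43. In bulk RNA, fewer cells expressing a gene and less RNA per cell cannot be told apart.

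**Figure D1:**
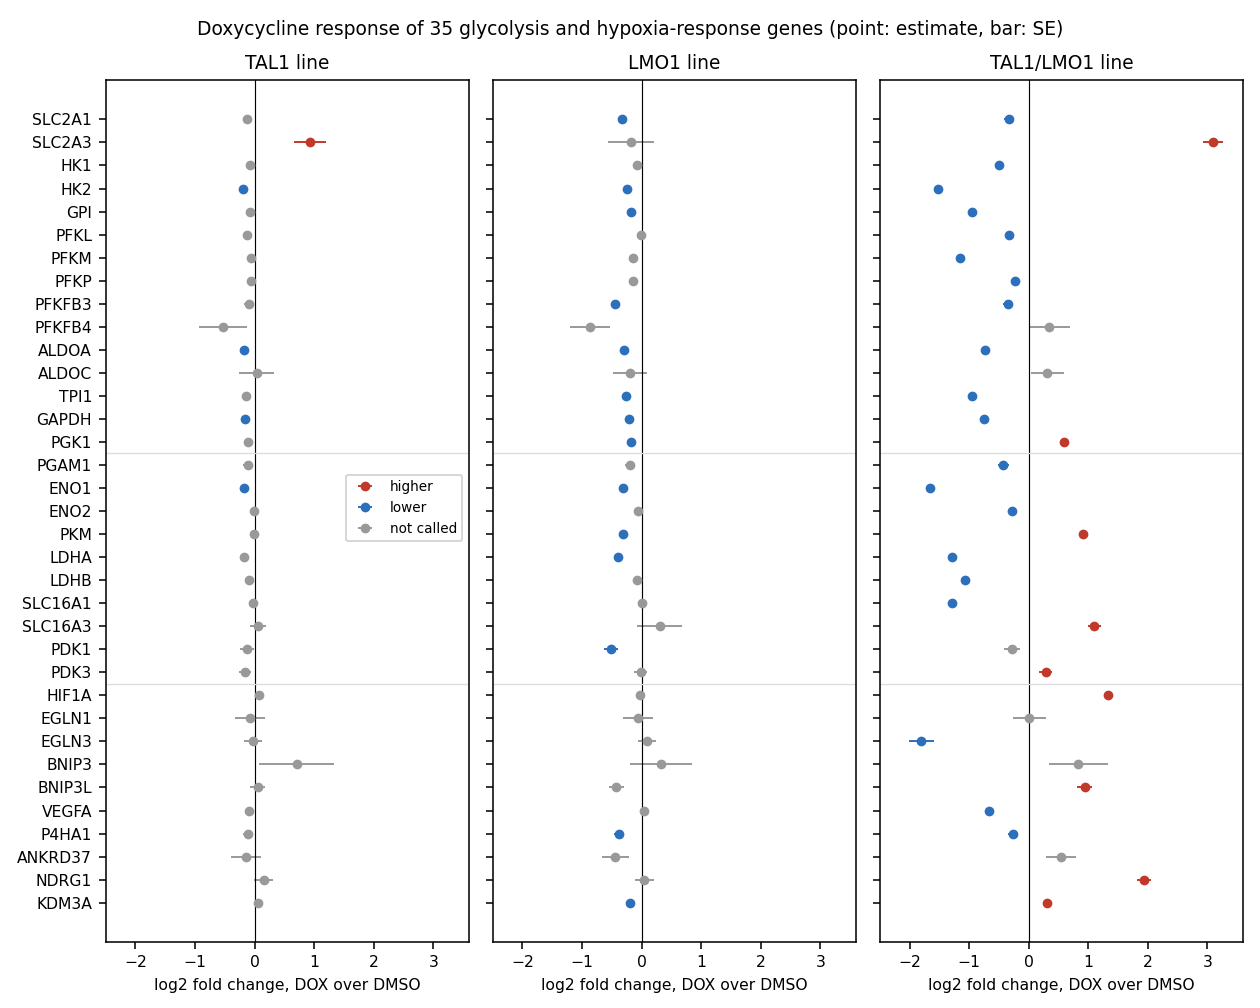
Log2 fold change of DOX over DMSO (horizontal axis) for each of the 35 genes (vertical axis, ordered along the pathway) in the 3 lines, with points for the estimate, bars for the SE and colours for the call. In the TAL1/LMO1 line 20 genes lie on the lower side and 9 on the higher side, from -1.80 for EGLN3 to 3.09 for SLC2A3, whereas the TAL1 line has 5 called genes and the LMO1 line 14.

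Since HIF-1 with its partner ARNT is known to bind the core ACGTG or GCGTG, and basic helix-loop-helix factors bind E-boxes such as CACGTG and, for TAL1, CAGATG, the promoters were searched for these letters on both strands. RefSeq promoters (GRCh38.p14, 250 bases before to 50 after a start site) matched 30 of the 35 genes. ACGTG or GCGTG was present in 22 of these 30 promoters (73.3%) and in 48.4% of all 35116 promoters of the same length. Only the first entry was used for each of the 30 genes, whereas the 35116 hold every entry, whether or not its gene was tested here. These shares are therefore not like for like, and their difference was not tested. CACGTG, which contains ACGTG, was in 5 of the 30 (16.7%, against 7.26% of all), and CAGATG in 4 of the 30 (13.3%, against 14.7%). By the call in the TAL1/LMO1 line, the core was in 5 of 6 promoters of genes that rose, 12 of 18 of genes that fell and 5 of 6 of genes not called. The windows below are from 3 genes that fell in that line (HK2, ENO1 and LDHA) and 2 that rose (PGK1 and HIF1A), and capitals mark the core on either strand, extended to CACGTG where that is present. They lie at chr2:74833885-74833914 and chr2:74834063-74834092 (HK2, plus strand), chr1:8878836-8878865 and chr1:8878742-8878771 (ENO1, minus strand), chr11:18394366-18394395 and chr11:18394470-18394499 (LDHA, plus strand), chrX:78104017-78104089 (PGK1, plus strand) and chr14:61695289-61695333 (HIF1A, plus strand). The 6 windows of HK2, ENO1 and LDHA overlap an annotated exon, and those of PGK1 and HIF1A do not.
HK2 upstream window: tagccacggaccaCACGTcccatctcaggc
HK2 downstream window: agccaatggGCGTGcgCACGTcactgatcc
ENO1 upstream window: tcacccccctttcCACGCtactgcagccgt
ENO1 downstream window: cggagctgaggggGCGTGccccggaggcgg
LDHA upstream window: agactcccagcgCACGTGgagcagtctgcc
LDHA downstream window: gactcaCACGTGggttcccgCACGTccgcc
PGK1 window: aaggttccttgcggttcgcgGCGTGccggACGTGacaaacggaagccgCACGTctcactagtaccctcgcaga
HIF1A window: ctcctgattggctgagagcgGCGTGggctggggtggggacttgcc
The windows were cut around matches in chosen genes, so each had to hold the core. Among the promoters searched, the core was in some but not all of those of genes that fell (12 of 18) and of genes that rose (5 of 6). A match only describes the sequence, and no binding was measured in these libraries.

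Glucose enters through SLC2A1 (GLUT1) and SLC2A3 (GLUT3, a high-affinity transporter), and these moved in opposite directions in the TAL1/LMO1 line. SLC2A3 stood at 3.21 and 2.25 CPM in the DMSO libraries of that line and at 21.4 and 25.2 CPM in the DOX libraries. Every library of the other lines lay below the latter, at 1.36 to 3.34 CPM in the TAL1 line and 0.786 to 1.37 CPM in the LMO1 line. SLC2A3 rose by 3.09 on the log2 scale (SE 0.17, 8.50-fold, adjusted p = 8.3e-29). SLC2A1 fell by 0.34 (SE 0.07, adjusted p = 3.9e-05), from a mean of 50.3 ± 3.13 to 39.9 ± 1.41 CPM (SD, n = 2).

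Hexokinase traps glucose in the cell as glucose 6-phosphate, and HK2 is its inducible form, HK1 the widely expressed one. HK2 had 100.4 and 103.7 CPM in the DMSO and 35.2 and 35.6 CPM in the DOX libraries of the TAL1/LMO1 line. In the other lines every library was above 130 CPM, from 132 to 180 CPM, so that the DOX libraries of the TAL1/LMO1 line were the lowest of all 12. HK2 fell by 1.53 (SE 0.06, adjusted p = 1.2e-34), and HK1 fell by 0.50 (SE 0.05, adjusted p = 1.2e-14).

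The upper steps from glucose 6-phosphate to triose phosphates all fell in the TAL1/LMO1 line wherever a gene was called. GPI, which makes fructose 6-phosphate, went from 441 and 445 CPM to 221 and 236 CPM. Its libraries did not overlap, and it fell by 0.96 (SE 0.05, adjusted p = 1.4e-27). PFKM, the muscle form of phosphofructokinase, the committing step of the pathway, went from 84.3 and 85.0 CPM to 38.2 and 37.9 CPM. PFKM fell by 1.15 (SE 0.06, adjusted p = 6.8e-27), and the liver and platelet forms PFKL and PFKP fell by 0.33 (SE 0.05) and 0.22 (SE 0.05). ALDOA, the main aldolase, went from 411 and 413 CPM to 242 and 251 CPM, again with no overlap. It fell by 0.74 (SE 0.05, adjusted p = 1.4e-23). TPI1, which interconverts the triose phosphates, went from 542 and 524 CPM to 266 and 286 CPM and fell by 0.95 (SE 0.05, adjusted p = 9.1e-30). PFKFB3, whose product stimulates phosphofructokinase, fell by 0.35 (SE 0.08, adjusted p = 0.00016). PFKFB4 and ALDOC were low, with means of 1.38 and 1.77 CPM in DMSO and 1.76 and 2.19 CPM in DOX, and were not called.

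The lower steps, which yield ATP and pyruvate, did not move together. GAPDH, which oxidises glyceraldehyde 3-phosphate, had 3554 and 3556 CPM in DMSO and 2069.9 and 2154 CPM in DOX in the TAL1/LMO1 line, the latter below each of the 10 remaining libraries. GAPDH fell by 0.75 (SE 0.04, adjusted p = 1.8e-27). PGK1, the next enzyme and the first to make ATP, went the other way, from 319.5 and 321 CPM to 495 and 473 CPM. The 2 DMSO libraries of this line were the lowest of all 12 for PGK1, and the DOX libraries came close to the range of the TAL1 and LMO1 lines, 502 to 622 CPM, without reaching it. PGK1 rose by 0.60 (SE 0.05, adjusted p = 5.2e-19).

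PGAM1, the mutase that follows, fell by 0.43 (SE 0.09, adjusted p = 0.00076). ENO1, the common enolase, went from 1258 and 1251 CPM to 395 and 402 CPM. The other lines had 1456 to 1998 CPM, with no overlap. ENO1 fell by 1.65 (SE 0.05, 0.318 of the DMSO level, adjusted p = 7.6e-46), while ENO2, the form known from neurons, fell by 0.28 (SE 0.05, adjusted p = 4.3e-06). PKM, which makes pyruvate, had 797 and 808 CPM in DMSO and 1455 and 1562 CPM in DOX. Its DOX libraries were above all others, the highest of which was an LMO1 DMSO library at 1321 CPM. PKM rose by 0.91 (SE 0.05, adjusted p = 6.7e-29); these gene counts do not separate its PKM1 and PKM2 splice forms.

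**Figure D2:**
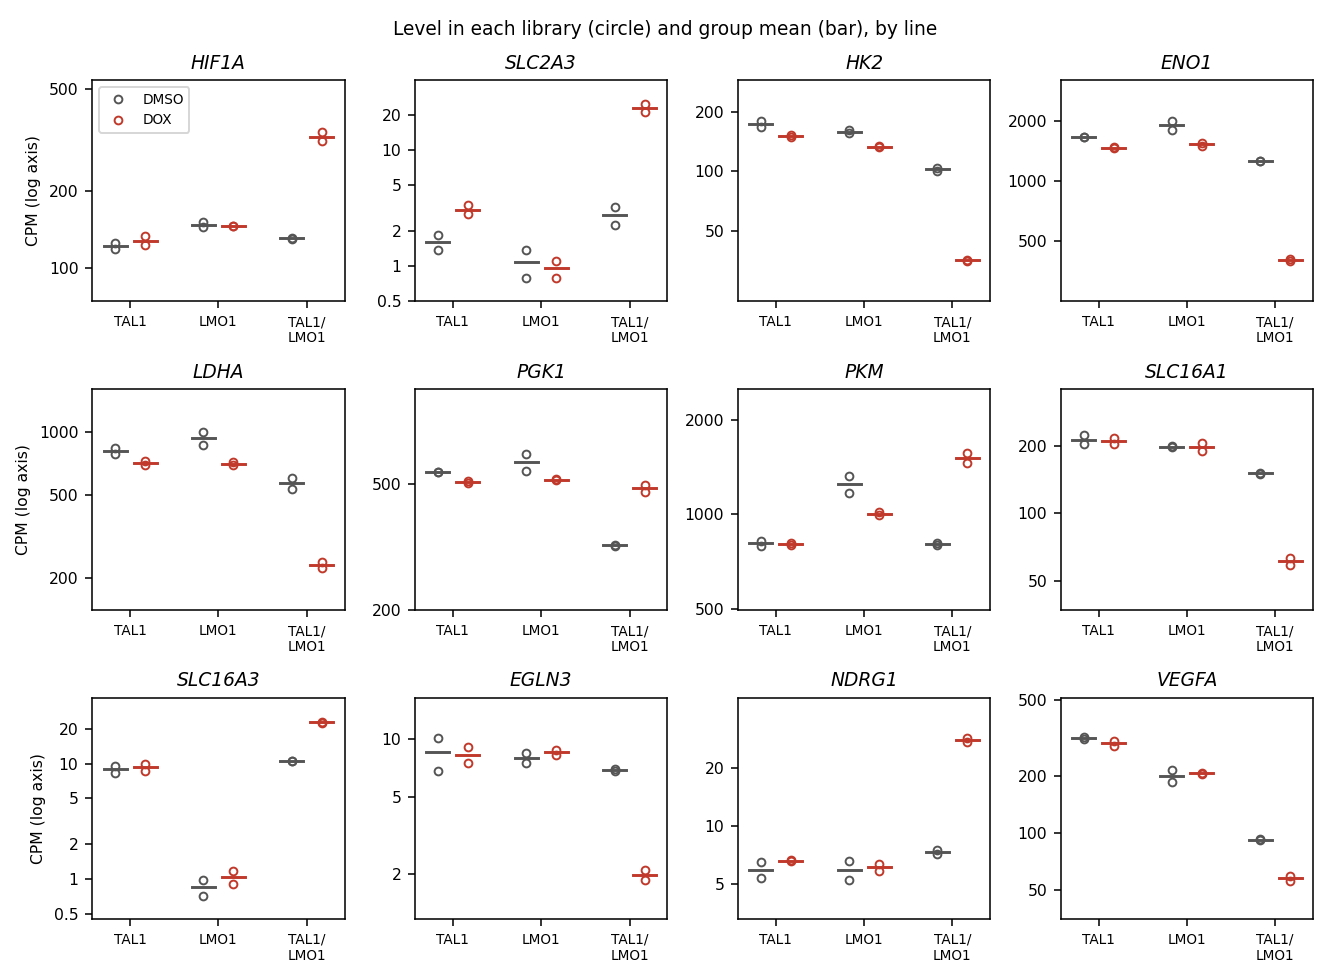
CPM on a log axis (vertical) of 12 genes in every library, by line (horizontal), with circles for libraries, bars for group means and colours for DMSO and DOX. In the TAL1/LMO1 line ENO1, HK2, LDHA, SLC16A1, EGLN3 and VEGFA drop with DOX, HIF1A, SLC2A3, PKM, SLC16A3 and NDRG1 exceed all other libraries, and PGK1 moves up from the lowest DMSO level.

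At the lactate step, both subunits of lactate dehydrogenase fell in the TAL1/LMO1 line. LDHA, the subunit linked to making lactate, had 600.2 and 531 CPM in DMSO and 225 and 240 CPM in DOX, and LDHB, the subunit linked to the reverse reaction, had 506 and 492 CPM and then 239 and 235 CPM. For both genes the DOX libraries were the lowest of all 12. LDHA fell by 1.28 (SE 0.06, adjusted p = 6.6e-15) and LDHB by 1.07 (SE 0.05, adjusted p = 2.2e-33). The lactate transporters diverged. SLC16A1 (MCT1) went from 151 and 149 CPM to 59.1 and 63.4 CPM and fell by 1.29 (SE 0.06, adjusted p = 2.3e-32). SLC16A3 (MCT4, known for lactate export from glycolytic cells) went from 10.6 CPM in both DMSO libraries to 22.4 and 23.0 CPM. It rose by 1.10 (SE 0.11, adjusted p = 2.7e-14).

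The pyruvate dehydrogenase kinases PDK1 and PDK3 were lowly expressed. PDK1 had 9.43 and 8.82 CPM in DMSO and 7.14 and 7.86 CPM in DOX in the TAL1/LMO1 line, and the change of -0.28 (SE 0.14) was not called (adjusted p = 0.077). PDK3 rose by 0.28 (SE 0.11, adjusted p = 0.022), with 13.3 and 13.2 CPM in DMSO and 18.1 and 14.1 CPM in DOX. The PDK3 call was lost without DMSO replicate 1 (adjusted p = 0.087), DMSO replicate 2 (0.099) or DOX replicate 1 (0.65), when genes of low counts were kept in, and with DESeq2 (adjusted p = 0.081).

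Among the oxygen sensors and their target factor, HIF1A mRNA was higher and EGLN3 mRNA lower in the TAL1/LMO1 line with DOX. HIF1A had 129.9 and 130.3 CPM in DMSO and 314 and 339 CPM in DOX. The other lines lay between 118 and 151 CPM, with no library near the DOX level of the TAL1/LMO1 line. HIF1A rose by 1.33 (SE 0.05, 2.51-fold, adjusted p = 3e-36). EGLN3, a prolyl hydroxylase that is itself a known HIF target, had 6.99 and 6.82 CPM in DMSO and 1.86 and 2.09 CPM in DOX, the lowest of all libraries. It fell by 1.80 (SE 0.21, adjusted p = 6.6e-12). EGLN1, the main hydroxylase, was low at 1.72 to 2.62 CPM in all 12 libraries and was not called in any line.

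The genes known as hypoxia targets did not share a direction. NDRG1, a stress-response gene, had 7.504 and 7.146 CPM in DMSO and 28.6 and 27.2 CPM in DOX in the TAL1/LMO1 line. All libraries of the other lines were below 7 CPM, and NDRG1 rose by 1.93 (SE 0.12, 3.81-fold, adjusted p = 3.3e-25). BNIP3L (NIX), a mitophagy receptor, went from 56.6 and 48.0 CPM to 102.9 and 97.8 CPM, above every other library, and rose by 0.94 (SE 0.12, adjusted p = 4.8e-05). KDM3A, a histone demethylase, rose by 0.31 (SE 0.05, adjusted p = 9.2e-07). VEGFA, the angiogenic growth factor, moved the other way, from 92.2 and 91.3 CPM to 56.0 and 59.0 CPM, and fell by 0.67 (SE 0.06, adjusted p = 3.6e-16). P4HA1, a collagen prolyl hydroxylase, fell by 0.27 (SE 0.09, adjusted p = 0.007), a call that was lost with scaling to total counts (adjusted p = 0.09) and without DMSO replicate 1 (0.097) or DOX replicate 1 (0.14). ANKRD37 (2.90 ± 0.763 CPM in DOX) and the mitophagy gene BNIP3 (0.865 ± 0.00684 CPM; SD, n = 2) were not called. ANKRD37 was called higher with total counts (log2 fold change 0.64, adjusted p = 0.026) and without DOX replicate 1 (0.77, adjusted p = 0.02).

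Per length of transcript, as RPKM (CPM divided by the exon length in kilobases), the make-up of several enzyme and transporter families changed in the TAL1/LMO1 line. SLC2A3 made up 4.02% ± 1.19 of the summed RPKM of both glucose transporters in DMSO and 30.9% ± 3.23 in DOX (SD, n = 2). The share of ENO2 in both listed enolases went from 15.9% ± 0.0252 to 33.0% ± 0.722, since ENO1 fell more than ENO2. The share of SLC16A3 in both listed lactate transporters went from 3.99% ± 0.0310 to 18.0% ± 0.445. HK2 went from 26.6% ± 0.166 to 15.1% ± 0.123 of both listed hexokinases, and PFKM from 16.5% ± 0.492 to 9.62% ± 0.207 of the 3 phosphofructokinases. The share of LDHA in both lactate dehydrogenases changed least of the 6, from 34.1% and 36.3% in the DMSO libraries to 31.1% and 32.9% in the DOX libraries. These shares were not tested, but for all 6 the libraries of the 2 treatments did not overlap.

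**Figure D3:**
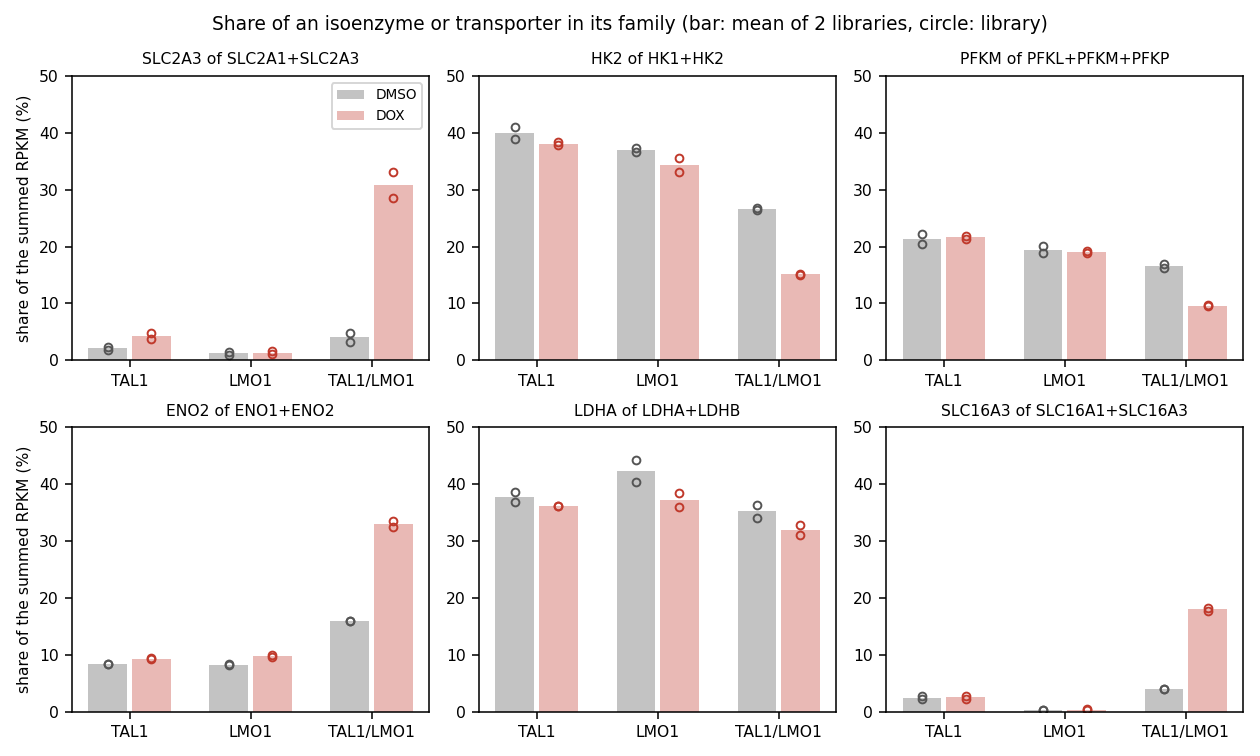
Share in percent (vertical axis) of 1 gene in the summed RPKM of the listed genes of its family. Each line (horizontal axis) is shown with DMSO or DOX, as bars for the mean of 2 libraries and circles for libraries. In the TAL1/LMO1 line SLC2A3 reaches 30.9%, ENO2 33.0% and SLC16A3 18.0% with DOX, while HK2 drops to 15.1% and PFKM to 9.62%.

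The order of levels per length also changed in that line. GAPDH had the highest RPKM of the 35 genes in all 6 groups, 1193 in DMSO and 709 in DOX in the TAL1/LMO1 line. ENO1 ranked 2 in 5 groups and 6 in the DOX group of the TAL1/LMO1 line (237.9 RPKM in DMSO and 75.5 RPKM in DOX), where PKM took rank 2 (93.6 and 176 RPKM) and PGK1 rank 4. Summed over the 35 genes, the CPM went from 10306 ± 48.4 to 7499 ± 208 (SD, n = 2), which was 27.2% less. The 25 genes of glycolysis and pyruvate together fell by 31.1% and the 10 hypoxia genes together stood 55.2% higher, from 467 ± 11.1 to 725 ± 21.5 CPM, of which HIF1A alone made up the larger part of the gain.

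In the single lines the changes were small. In the TAL1 line 4 of the 35 genes fell and 1 rose, against 0.853% and 0.982% of all genes (1.84% either way), with a median of -0.09. ENO1 fell by 0.17 (SE 0.04, adjusted p = 0.014), GAPDH by 0.16 (SE 0.04, adjusted p = 0.022), HK2 by 0.20 (SE 0.05, adjusted p = 0.022) and ALDOA by 0.17 (SE 0.05, adjusted p = 0.026). SLC2A3 rose by 0.94 (SE 0.27, adjusted p = 0.046), from 1.84 and 1.36 CPM to 3.34 and 2.79 CPM. None of these 5 calls held in every analysis that left out 1 library of this line: SLC2A3 was called in none of them, and at most 1 of the 4 others was called in any. None of the 10 hypoxia genes was called in this line by edgeR, none had an unadjusted p under 0.05, and DESeq2 called 0. HIF1A had 125 and 118 CPM in DMSO and 132 and 123 CPM in DOX, with overlap, and was not called (0.07, SE 0.05, adjusted p = 0.68).

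In the LMO1 line 14 of the 35 genes fell, against 0.964% of all genes called lower and 2.14% called either way, and the median was -0.18. None rose by edgeR (0 at an unadjusted p under 0.05 and 0 by DESeq2, against 1.18% of all genes called higher). Of the 14, 12 belong to glycolysis and pyruvate and 2, P4HA1 and KDM3A, to the hypoxia genes. LDHA had 863 and 994 CPM in DMSO and 714 and 694 CPM in DOX and fell by 0.40 (SE 0.06, adjusted p = 0.00018). ENO1 had 1792 and 1998 CPM and then 1554 and 1491 CPM and fell by 0.32 (SE 0.04, adjusted p = 1.4e-07). PDK1 had 15.3 and 18.3 CPM and then 11.01 and 12.41 CPM and fell by 0.52 (SE 0.12, adjusted p = 0.0034). In each of these genes the libraries of both treatments stayed apart.

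PFKFB3 fell by 0.45 (SE 0.07), SLC2A1 by 0.34 (SE 0.07), PKM by 0.31 (SE 0.05), ALDOA by 0.29 (SE 0.05), TPI1 by 0.26 (SE 0.05), HK2 by 0.25 (SE 0.05) and GAPDH by 0.21 (SE 0.04) in the LMO1 line, with adjusted p from 1.2e-06 to 0.0013. P4HA1 fell by 0.38 (SE 0.08), KDM3A by 0.20 (SE 0.06), PGK1 by 0.18 (SE 0.05) and GPI by 0.18 (SE 0.05). HIF1A had 151 and 144 CPM in DMSO and 145 CPM in both DOX libraries, which was not called (-0.02, SE 0.05, adjusted p = 0.93).

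The size of this response rested in part on 1 library. In DMSO replicate 2 of the LMO1 line 29 of the 35 genes were higher than in replicate 1, by a median of 0.17 on the log2 scale, whereas the median over all genes was 0. PFKFB4 had 1.18 CPM in replicate 1 and 3.59 CPM in replicate 2, BNIP3L 56.7 and 76.9 CPM, and PFKFB3 79.2 and 98.0 CPM. Without replicate 2, 8 genes fell (ALDOA, ENO1, GAPDH, HK2, LDHA, PFKFB3, PKM and TPI1), against 0.544% of all genes, and the median was -0.10. Without replicate 1, 17 fell, against 0.79% of all genes, with a median of -0.27. In either case most of the 35 estimates were below 0, 26 and 28 of them. Across all analyses that left out 1 library of the line, 7 genes were always called: ALDOA, ENO1, GAPDH, LDHA, PFKFB3, PKM and TPI1. With all libraries, DESeq2 called 11 of the 14 lower and did not call GPI (adjusted p = 0.093), PDK1 (0.086) or KDM3A (0.15).

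**Figure D4:**
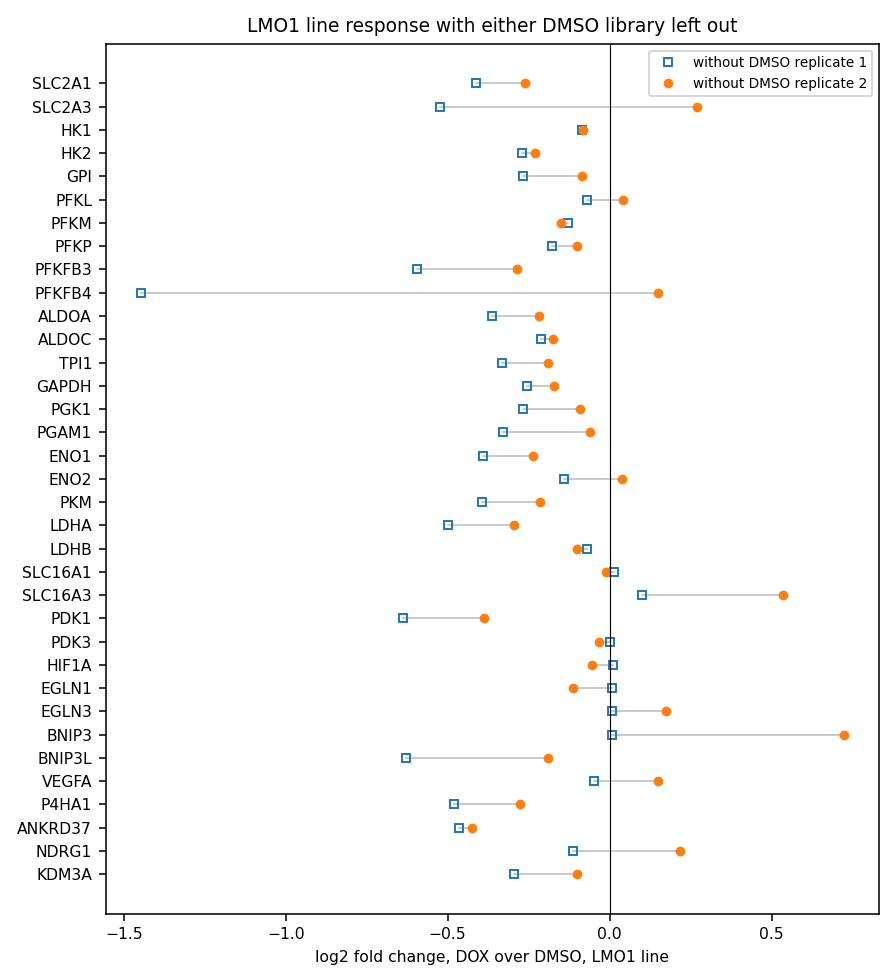
Log2 fold change of DOX over DMSO in the LMO1 line (horizontal axis) for each of the 35 genes (vertical axis), with squares for the estimate without DMSO replicate 1 and circles for that without DMSO replicate 2. Most circles lie nearer to 0 than the squares: the median is -0.10 without replicate 2 and -0.27 without replicate 1.

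ALDOA, ENO1, GAPDH and HK2 were called lower in all 3 lines, as were 0.111% of all genes, although the TAL1 line calls did not hold with a library left out. In both the LMO1 and the TAL1/LMO1 line 10 of the 35 were called lower, as were 0.725% of all genes. Each line had its own DMSO libraries. PGK1, PKM and KDM3A were called lower in the LMO1 line and higher in the TAL1/LMO1 line, as were 0.153% of all genes. Of these, PKM kept its LMO1 call in every fit without 1 library, and PGK1 and KDM3A lost theirs without DMSO replicate 2 (adjusted p = 0.61 and 0.68), DOX replicate 1 (0.14 and 0.32) or DOX replicate 2 (0.11 and 0.14). KDM3A also lost its LMO1 call with total counts (0.055), with DESeq2 (0.15) and with only the groups compared (0.057). PKM had 1166 and 1321 CPM in DMSO and 1014 and 995 CPM in DOX in the LMO1 line, and 824, 791, 796 and 810 CPM in the TAL1 line, where it was not called.

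The response to DOX of the TAL1/LMO1 line was tested against that of each single line within the same model. It differed from the TAL1 response for 24 of the 35 genes, 9 more positive and 15 more negative, against 43.8% of all genes (18.4% and 25.4%). It differed from the LMO1 response for 24 genes as well, 9 more positive and 15 more negative, against 45.4% of all genes (19.1% and 26.4%). These comparisons share the TAL1/LMO1 libraries; 22 genes passed both, as did 38.1% of all genes. The difference was -1.48 (SE 0.06) against the TAL1 line and -1.34 (SE 0.06) against the LMO1 line for ENO1, and 1.26 (SE 0.07) and 1.35 (SE 0.07) for HIF1A. For SLC16A3 it was 1.05 against the TAL1 line (SE 0.18, adjusted p = 6.2e-07) and 0.80 against the LMO1 line (SE 0.41, adjusted p = 0.1), where the gene was near 1 CPM. The TAL1 and LMO1 responses differed from each other for 1 gene, PKM (0.30, SE 0.06, adjusted p = 0.0028), against 0.939% of all genes (0.387% more positive in the TAL1 line and 0.553% more negative). At an unadjusted p under 0.05 there were 10 genes, all with the more negative response in the LMO1 line. The share of all genes at that threshold is not given here, so the 10 cannot be set against it. All 10 contrasts use LMO1 DMSO replicate 2, where 29 of the 35 genes were higher than in replicate 1. The PKM difference was not called without LMO1 DMSO replicate 2, nor without TAL1 DMSO replicate 2, when 0 genes were called.

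The lines already differed without DOX. With DMSO, 22 of the 35 genes differed between the TAL1/LMO1 and the TAL1 line, 17 lower and 5 higher in the TAL1/LMO1 line, against 45.4% of all genes (23% lower and 22.4% higher). Between the TAL1/LMO1 and the LMO1 line 28 differed, 24 lower and 4 higher in the TAL1/LMO1 line, against 41% of all genes (20.6% and 20.4%). Between the TAL1 and the LMO1 line 17 differed, 13 lower and 4 higher in the TAL1 line, against 36.4% of all genes (17.8% and 18.5%), and 10 without LMO1 DMSO replicate 2. In the TAL1/LMO1 line 17 of the 35 genes were below both other lines, as were 12.3% of all genes. Of these, 14 fell further with DOX (8.17% of all genes did both), PGK1 and PDK3 rose (1.65%), and PDK1 was not called. ENO2, PFKL and SLC2A3 were above both other lines, as were 12.2% of all genes. SLC2A3 then rose with DOX, and ENO2 and PFKL fell. The DMSO difference of SLC2A3 from the TAL1 line (0.77, adjusted p = 0.017) was not called with DESeq2 (adjusted p = 0.051). It was 0.57 without TAL1 DMSO replicate 2 and 0.49 without TAL1/LMO1 DMSO replicate 1. Among the 17 genes below both lines, some calls against the TAL1 line also depended on the method. SLC2A1 was not called with DESeq2 (adjusted p = 0.06) or with total counts in edgeR (0.097), nor PFKP with total counts (0.056).

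The widest such differences were in SLC16A3 and VEGFA. SLC16A3 had 0.720 and 0.978 CPM in the DMSO libraries of the LMO1 line, 8.32 and 9.51 CPM in those of the TAL1 line, and 10.6 CPM in those of the TAL1/LMO1 line. The LMO1 line was lower than the TAL1/LMO1 line by 3.62 (SE 0.29, adjusted p = 2.8e-24) and lower than the TAL1 line by 3.38 (SE 0.30, adjusted p = 1.1e-21). VEGFA had 320 and 312 CPM in the TAL1 line, 186 and 213 CPM in the LMO1 line and 92.2 and 91.3 CPM in the TAL1/LMO1 line. The 3 lines did not overlap, and the log2 difference of the TAL1/LMO1 line was -1.78 (SE 0.05) from the TAL1 line and -1.12 (SE 0.05) from the LMO1 line. HK2 was lower in the TAL1/LMO1 line than in the TAL1 line (-0.76, SE 0.05) and the LMO1 line (-0.63, SE 0.05), and so was PGK1 (-0.77, SE 0.05, and -0.87, SE 0.05). HIF1A did not pass the test between the TAL1/LMO1 and TAL1 lines (0.10, SE 0.05, adjusted p = 0.13) and was lower than in the LMO1 line (-0.18, SE 0.05, adjusted p = 0.0045).

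**Figure D5:**
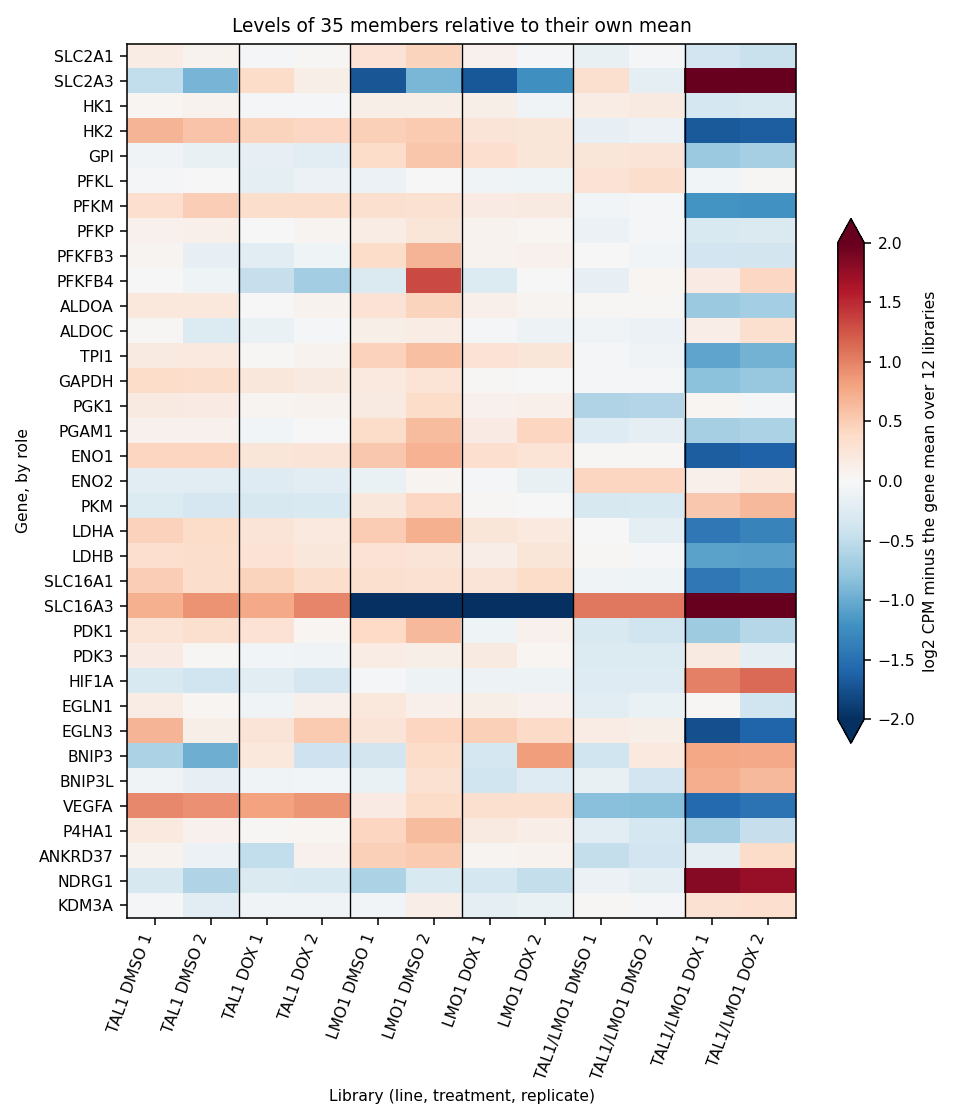
Log2 CPM of each of the 35 genes (vertical axis) in each of the 12 libraries (horizontal axis), as the difference from the mean of that gene over the libraries, with red for above and blue for below; the colour scale ends at 2 on either side. The DOX libraries of the TAL1/LMO1 line hold most of the deep colours, the DMSO replicate 2 of the LMO1 line is redder than replicate 1 in 29 genes, and SLC16A3 is low in all 4 LMO1 libraries.

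A further 60 genes of the same pathways were listed, of which 42 had enough counts to be tested. In the TAL1/LMO1 line 12 of the 42 rose and 15 fell, near the shares over all genes of 28.5% and 31.7%, with a median of 0.04. EPAS1, which encodes HIF-2α, the alternative oxygen-regulated subunit, had 2.44 and 1.87 CPM in DMSO and 106 and 108 CPM in DOX. In the TAL1 line it had 10.2 to 11.98 CPM and in the LMO1 line 2.21 to 2.51 CPM with either treatment. EPAS1 rose by 5.63 in the TAL1/LMO1 line (SE 0.18, adjusted p = 1e-54). HKDC1, a hexokinase-domain gene, had 17.1 and 19.8 CPM and then 0.81 and 1.17 CPM and fell by 4.21 (SE 0.26, adjusted p = 1.5e-30). KDM4C, a histone demethylase, rose by 0.92 (SE 0.07), and CITED2, known to limit HIF activity, rose by 0.88 (SE 0.08). DLAT, a subunit of pyruvate dehydrogenase, fell by 0.71 (SE 0.05), and PDP2, a phosphatase that switches the complex on, fell by 0.62 (SE 0.06). In the LMO1 line 1 of the 42 was called, FAM162A, lower (chosen here because it was the single call), with 0 by DESeq2 and 2.14% of all genes called by edgeR. In the TAL1 line edgeR called 0 of the 42, against 1.84% of all genes, with 2 higher and 1 lower at an unadjusted p under 0.05 and 0 by DESeq2.

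In the authors' deposited tables, at an adjusted p under 0.05, 8 of the 35 genes were higher and 19 lower in the TAL1/LMO1 line. There were 0 and 3 in the TAL1 line, and 0 and 8 in the LMO1 line, where 14 had no adjusted p. The share of all genes called in those tables is not given here, so these counts serve only to compare calls gene by gene. All 27 calls of the authors' deposited table for the TAL1/LMO1 line were also among the calls given here. In the LMO1 line all 8 were called here too. In the TAL1 line 2 of the 3 were, and LDHA had an adjusted p of 0.017 in the authors' deposited table and 0.14 here. Log2 fold changes were compared for genes with an adjusted p in the authors' deposited tables. They differed from those given here by at most 0.0185 in the TAL1 line, 0.00347 in the LMO1 line and 0.00856 in the TAL1/LMO1 line. This leaves out the 14 genes without an adjusted p in the LMO1 line, such as PFKFB4 (-0.8675 there and -0.8607 here).

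Of the 35 genes, 15 have pseudogenes named after them in the table, 109 in all and 59 of GAPDH alone. The counts on these came to 0.283% of those on GAPDH, 0.807% for TPI1, 0.415% for LDHA and 2.39% for SLC2A3. How reads that match several places were treated is not stated in the labels, so the levels of these genes are uncertain to that extent. Antisense genes are named after 5 of the 35, with counts equal to 4.25% of those on SLC16A1 and 1.43% of those on SLC2A1; libraries were strand-specific, but whether the counting used strand is not given.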

How the data were processed

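RNA was sequenced from 12 libraries, 2 for each of 6 groups, as strand-specific read pairs of 100 bases, per the labels' protocols. Per the submitters' processing notes, the tools were STAR 2.5.2a, featureCounts and DESeq2 1.12.4, with hg19 as the build. The authors deposited raw counts per gene with no normalization; whether these are reads or read pairs is not stated there. The authors' deposited tables, 1 for each line, hold, per the file headers, the Wald statistic (a score), p-values before and after adjustment, the log2 fold change and its SE, and a signal, the mean normalised count. The direction of the authors' ratio, DOX over DMSO, was read from the induced transgenes.

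The remaining values were computed from the deposited counts. Genes were kept by filterByExpr, and libraries scaled by TMM; CPM and RPKM use these scaled sizes, and RPKM uses exon lengths of GENCODE annotation on GRCh38, matched by Ensembl identifier. A quasi-likelihood model (edgeR 4.0.16, R 4.3.3, robust) fitted each group's mean, with 6 residual degrees of freedom, and shared spread between genes (median prior degrees of freedom 66.0); the common biological coefficient of variation was 3.35%. Tests were two-sided, with Benjamini-Hochberg adjustment over all genes in each comparison, and a difference between lines was a contrast in the same model. SD is over the 2 libraries of a group. SE was obtained from the F statistic as the change over its root, or from counting error where that was larger. The labels do not say whether replicates were separate cultures, and the p-values then cover only the spread between the libraries at hand, which may be technical. A count of 3 corresponds to at most 0.198 CPM.

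The 35 genes, the further list and the markers were chosen with earlier results of these data known. Full values are given for genes called in at least 1 line with a change of at least 0.5 on the log2 scale and for HIF1A, and for up to 6 of the further genes with the smallest p in the TAL1/LMO1 line. The alternatives were scaling by size factors or by total counts, no filter, DESeq2 1.42.0 without independent filtering, only the groups compared, the replicate number as a block, and each library left out. The scripts were tested on simulated data in which few genes changed, equally in both directions. A response as broad as that of the TAL1/LMO1 line was not simulated.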

Additional observations from a re-analysis of the deposited data

Results flagged for a closer look

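Differences between lines in the response to DOX are listed for the genes described in full. The contrast of both responses had to pass an adjusted p under 0.05 (edgeR quasi-likelihood test, n = 2 libraries a group). Against the TAL1 line, the TAL1/LMO1 response differed for 24 of the 35 genes, against 43.8% of all genes. Of these, KDM3A and PDK3 (log2 differences 0.26 and 0.44) and ENO2, HK1 and PFKL (-0.42 to -0.20) are not listed. With DESeq2, PDK3 (adjusted p = 0.067) and PFKL (0.093) were not called. On the log2 scale the difference was 2.15 for SLC2A3, 1.77 for NDRG1, 1.26 for HIF1A, 1.05 for SLC16A3, 0.92 for PKM, 0.89 for BNIP3L and 0.70 for PGK1. It was -1.77 for EGLN3, -1.48 for ENO1, -1.33 for HK2, -1.27 for SLC16A1, -1.10 for LDHA, -1.09 for PFKM, -0.99 for LDHB, -0.88 for GPI, -0.81 for TPI1, -0.60 for GAPDH, -0.58 for VEGFA and -0.57 for ALDOA.

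Against the LMO1 line the response also differed for 24 genes, against 45.4% of all genes. Of these, KDM3A, ANKRD37 and PFKFB4 (log2 differences 0.52 to 1.21) and ENO2, HK1 and PFKL (-0.41 to -0.22) are not listed. With DESeq2, PFKFB4 (adjusted p = 0.16), ANKRD37 (0.086) and ENO2 (0.069) were not called. The difference was 3.27 for SLC2A3, 1.89 for NDRG1, 1.37 for BNIP3L, 1.35 for HIF1A, 1.22 for PKM and 0.78 for PGK1. It was -1.89 for EGLN3, -1.34 for ENO1, -1.29 for SLC16A1, -1.28 for HK2, -1.01 for PFKM, -0.99 for LDHB, -0.88 for LDHA, -0.78 for GPI, -0.72 for VEGFA, -0.69 for TPI1, -0.54 for GAPDH and -0.45 for ALDOA. Between the TAL1 and LMO1 lines the response differed for 1 gene, PKM, by 0.30, against 0.939% of all genes. As stated above, the PKM call did not hold in every analysis that left out a library.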

How the results depend on the processing

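Each group had 2 libraries, so that a call rests largely on the spread of other genes, and the genes near 1 CPM (PFKFB4, BNIP3 and, in the LMO1 line, SLC16A3 and SLC2A3) allow no small change to be seen. Of 132 alternative counts of called genes among the 35, 115 stayed within 1.5 times the count given. In the TAL1 line the 1 gene called higher became 0 with DESeq2 and 0 whichever library was left out, and the 4 called lower became 1 with total counts and 0 to 1 with a library left out. In the LMO1 line the 14 called lower became 8 to 17 with a library left out. The 1 gene whose TAL1 and LMO1 responses differed became 3 with no filter on low counts and 0 to 5 with a library left out. The 17 genes that differed between the DMSO libraries of these lines became 10 to 19. Among 600 alternative fold changes of the 20 genes described in full 0 reversed a call's direction. All 200 in the TAL1/LMO1 line kept their side of the threshold. These genes were chosen by their calls and fold changes, mostly in that line, so this stability was in part built in. Among the genes not described in full, PDK3 and P4HA1 lost their call in that line in some alternatives, and ANKRD37 gained one. The cause of the changes in calls was not tested. Over all genes, the TAL1 line had 160 higher and 139 lower, against 81 and 85 with DESeq2, 57 lower with total counts and 286 lower with only its own groups fitted, and 63 to 108 higher and 31 to 48 lower with a library left out. The LMO1 line had 192 and 157, against 89 and 92 with DESeq2 and 82 to 149 and 70 to 135 with a library left out. Scaling moved the median of all genes in the TAL1/LMO1 line to 0.08 with total counts.

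The replicate numbers are shared between groups, but same-numbered libraries did not deviate together: the correlations of their deviations ran from -0.064 to 0.104 over the 15 pairs of groups. With the replicate number as a block, the calls among the 35 were 1 higher and 4 lower in the TAL1 line, 0 and 15 in the LMO1 line, and 9 and 20 in the TAL1/LMO1 line. The share of all genes called in that fit is not given here, so these counts serve only for comparison with those without the block.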
